A study of Mus musculus with 8 samples.

Results

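The HtrA family of serine proteases was followed in the gastrocnemius muscle, a mixed calf muscle, of Hdac5 knockout mice and of their wild type littermates. The family has 4 genes here, Htra1, Htra2, Htra3 and Htra4, out of 19938 genes with a usable probe set on the arrays. It was chosen on the genotype difference of Htra4 seen earlier in these same arrays, so that difference is a description and carries no test. Each gene is represented by a single probe set whose platform annotation names that gene alone, and 0 further probe sets name a member beside another gene.

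The arrays comprised 4 from Hdac5 knockout mice, whose genotype label reads HADAC5 KO, and 4 from HDAC5 WT littermates. All mice were 30 weeks old, ate low-fat chow and received no further treatment. HDAC5 is a class IIa histone deacetylase, and the submitters asked about its part in interleukin 6 transcription in muscle. The labels number the samples without saying that each is a different animal, and they do not give the sex of the mice, the deleted part of Hdac5 or the cells in which it was deleted. The p-values therefore measure the spread between these samples.

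HtrA proteases share a trypsin-like protease domain followed by a PDZ domain, which binds protein C-termini. HtrA1, HtrA3 and HtrA4 are secreted proteins that also carry an insulin-like growth factor binding protein module and a Kazal-like module. HtrA2, also called Omi, sits in the mitochondrial intermembrane space, where it takes part in protein quality control, and it binds inhibitors of apoptosis once it is released to the cytosol. HtrA1 is known for cleaving matrix proteins and components of the TGF-beta pathway, and in humans HtrA4 is best known from the placenta.

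The targeted gene was lower in every knockout sample. Hdac5 signal was 8.32, 8.31, 8.31 and 8.39 in knockout samples 1 to 4, against 9.94, 9.76, 9.83 and 9.80 in wild type samples 1 to 4, all on the log2 scale of the deposited values. Arrays correlated with each other at 0.988 to 0.995, and array medians lay between 7.69 and 7.77. The 9 fast fibre markers, which define most of this muscle, averaged 14.29 to 14.33 in knockout and 14.32 to 14.35 in wild type samples. All 9 had a lower mean in knockout muscle, with a median difference of -0.025 and 0 at an unadjusted p under 0.05 in limma. These averages lay near the highest value on the arrays, 14.84, where signal can saturate.

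Htra4 was the member that separated the genotypes. Its log2 signal was 9.26, 9.33, 9.07 and 9.58 in knockout samples 1 to 4, against 10.94, 10.77, 10.95 and 10.87 in wild type samples 1 to 4. All 4 knockout samples lay below all 4 wild type samples, and a gap of 1.19 separated the highest knockout sample from the lowest wild type sample. The knockout samples were spread over 0.51 and the wild type samples over 0.18, with knockout sample 4 the nearest to wild type. The means were 9.31 ± 0.21 in knockout and 10.88 ± 0.08 in wild type muscle (SD, n = 4 each).

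The difference, knockout minus wild type, was -1.57 (limma's moderated SE 0.095, 95% interval -1.78 to -1.36). In linear units this left Htra4 in knockout muscle at 33.6% of its wild type signal (95% interval 29.1% to 38.8%). Both intervals only describe the spread between samples and take no account of the choice of Htra4 on this same difference. By size it ranked 1 among the lower-signal differences of all genes tested, ahead of Hdac5 itself at rank 2 with -1.50 (SE 0.059). The central 95% of all genes lay between -0.19 and 0.21. Htra4 signal stood at the 71.7th percentile of gene means in knockout and at the 90.5th in wild type muscle. Neither genotype was at the dim end of the array by this rank. Hdac5, the targeted gene, stood at the 55.2nd percentile in knockout muscle, at 35.4% of its wild type signal. How much of the signal left in knockout muscle was probe background was not tested for either gene. These percentiles place the signal on the array and do not rank transcript abundance, because probe sets differ in brightness.

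**Figure D1:**
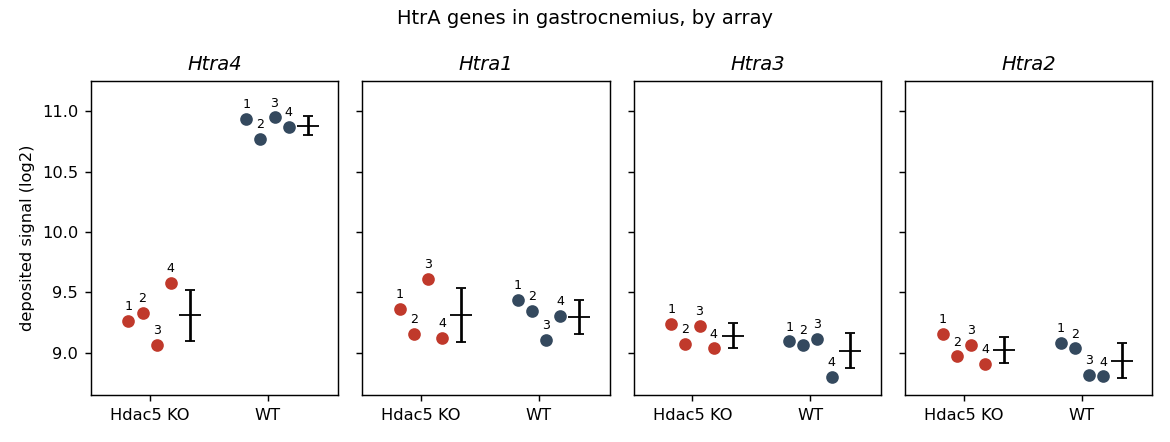
Deposited log2 signal (vertical axis) of the 4 HtrA genes in each array, with Hdac5 KO left of WT. Points are arrays numbered as in the labels, and the bar beside each group is its mean with SD (n = 4). Htra4 sits between 9.07 and 9.58 in knockout and between 10.77 and 10.95 in wild type arrays, while the groups overlap for the other members. Levels of different genes are not comparable.

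Htra1, the secreted protease best known for cleaving fibronectin, decorin and related matrix proteins, did not separate the genotypes. It measured 9.36, 9.16, 9.61 and 9.12 in knockout samples 1 to 4, against 9.44, 9.35, 9.10 and 9.30 in wild type samples 1 to 4. The groups overlapped along most of their ranges. The means were 9.31 ± 0.23 in knockout and 9.30 ± 0.14 in wild type muscle (SD, n = 4 each), a difference of 0.013 (SE 0.107, 95% interval -0.22 to 0.25). The exact 2-sided permutation p was 0.914 and the limma adjusted p was 0.991.

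The sign of the Htra1 difference rested on single samples. Leaving out knockout sample 1 gave -0.0038, leaving out knockout sample 3 gave -0.087 and leaving out wild type sample 3 gave -0.052. Htra1 also varied more than most genes, with a pooled within-genotype SD of 0.188, larger than that of 93.2% of genes. Among the knockout samples, the one with the highest Htra1 (sample 3) had the lowest Htra4, and the one with the lowest Htra1 (sample 4) had the highest Htra4. Among the wild type samples, the one with the lowest Htra1 (sample 3) likewise had the highest Htra4, but the one with the highest Htra1 (sample 1) was close to the top for Htra4 as well.

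Htra3, a secreted family member with a domain layout like that of HtrA1, was at 9.24, 9.08, 9.22 and 9.03 in knockout samples 1 to 4, against 9.09, 9.07, 9.11 and 8.80 in wild type samples 1 to 4. Wild type sample 4 lay well below the other samples of its genotype, and the remaining values overlapped. The means were 9.14 ± 0.10 in knockout and 9.02 ± 0.15 in wild type muscle (SD, n = 4 each). The difference was 0.12 (SE 0.080, 95% interval -0.051 to 0.30), and it gave p = 0.257 in the exact 2-sided permutation test and an adjusted p of 0.768 in limma. It was 0.052 without wild type sample 4.

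Htra2, the mitochondrial member, measured 9.15, 8.97, 9.06 and 8.91 in knockout samples 1 to 4, against 9.08, 9.03, 8.82 and 8.80 in wild type samples 1 to 4. Knockout samples 2, 3 and 4 lay within the wild type range, and sample 1 lay above it. The means were 9.02 ± 0.11 in knockout and 8.93 ± 0.14 in wild type muscle (SD, n = 4 each), and the difference was 0.089 (SE 0.081, 95% interval -0.087 to 0.27). The exact 2-sided permutation p was 0.343 and the limma adjusted p was 0.846. It was 0.046 without knockout sample 1.

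Htra1, Htra2 and Htra3 were not among the 13 of 19938 genes (0.0652%) called in limma at an adjusted p under 0.05, and their samples overlapped between the genotypes. Samples without overlap, as seen for Htra4, occurred in 4.90% of all genes, and nothing is read from that share because the family was chosen on Htra4. For Htra1, Htra2 and Htra3 the 95% intervals allow a knockout signal between 85.8% and 118.6%, 94.1% and 120.2%, and 96.5% and 123.0% of wild type. A change as large as that of Htra4 lies outside all 3 intervals.

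**Figure D2:**
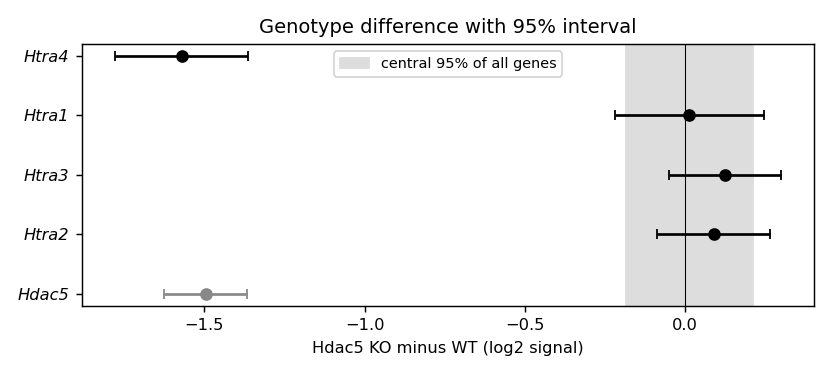
Genotype difference (horizontal axis, Hdac5 KO minus WT in log2 signal) of each HtrA gene and of the targeted gene Hdac5. Points are limma estimates from 4 arrays per genotype, bars are 95% intervals and the grey band is the central 95% of all genes. The Htra4 interval takes no account of the choice of Htra4 on this difference. Htra4 (-1.57) lies beside Hdac5 (-1.50), and the intervals of Htra1, Htra3 and Htra2 include 0.

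Htra4 lies on mouse chromosome 8, Htra1 on chromosome 7, Htra2 on chromosome 6 and Htra3 on chromosome 5 in the RefSeq table of assembly GRCm38.p6, whereas Hdac5 lies on chromosome 11. RefSeq lists 0 genes that overlap Htra4, Htra1 or Htra3. Htra2 overlaps 2 genes, Loxl3, a lysyl oxidase-like enzyme, which differed by -0.015 (SE 0.052), and Aup1, a lipid droplet protein, which differed by -0.049 (SE 0.066).

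The protein-coding genes beside Htra4 did not share its difference. Among the 5 on each side, 9 were on the array, 0 of the 9 were called in limma and 1 had an unadjusted p under 0.05. Over all genes 7.90% had an unadjusted p under 0.05. Their differences ran from -0.15 to 0.09 with a median of -0.04. The gene under 0.05 was Tm2d2, a membrane protein gene next to Htra4. It was at 10.39, 10.31, 10.32 and 10.28 in knockout samples 1 to 4 against 10.45, 10.48, 10.50 and 10.47 in wild type samples 1 to 4. All its knockout samples lay below all its wild type samples, but the difference was -0.15 (SE 0.052), with a limma adjusted p of 0.461. Samples without overlap, in either direction, occurred in 4.90% of all genes. Adam9, a membrane-bound metalloprotease, differed by -0.048 (SE 0.053), and Plekha2, the nearest gene on the other side, by 0.09 (SE 0.088). The growth factor receptor gene Fgfr1 differed by -0.042 (SE 0.057), Letm2 by -0.087 (SE 0.068) and Tacc1 by -0.055 (SE 0.059). Adam3, Adam5 and Adam32, genes of sperm surface proteins, differed by 0.024, -0.020 and 0.013.

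**Figure D3:**
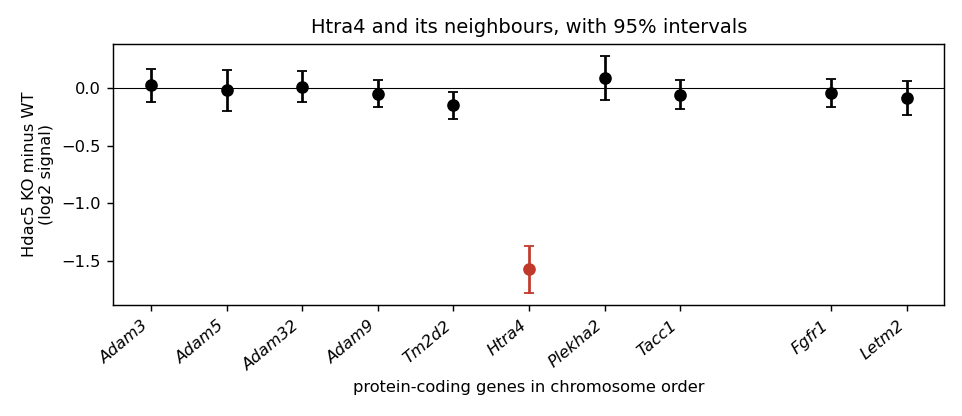
Genotype difference (vertical axis, Hdac5 KO minus WT in log2 signal) of Htra4 and of the 9 measured genes among the 5 protein-coding genes on each side of it, in chromosome order. Points are limma estimates from 4 arrays per genotype with 95% intervals. The Htra4 interval takes no account of the choice of Htra4 on this difference. Htra4 stands at -1.57 and its neighbours between -0.15 and 0.09.

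The measured genes near the other members also included 0 called in limma. Differences ran from -0.20 to 0.22 for the 9 genes near Htra1. Of these, 2 had an unadjusted p under 0.05, against 7.90% of all genes. Differences ran from -0.076 to 0.10 for the 10 near Htra2 and from -0.066 to 0.076 for the 9 near Htra3. In both of these sets 0 had an unadjusted p under 0.05.

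The genes whose pattern over the 8 arrays was most like that of Htra4 were sought among 9968 genes with a mean signal above the median gene, by Pearson's r as a description of likeness. Hdac5 came first (r = 0.99), followed by Banf1, which bridges DNA at the nuclear envelope (0.98), the phosphatase Dusp26 (0.97), the mitochondrial hydrolase Abhd11 (0.97) and Mia3, which loads collagen for export from the endoplasmic reticulum (0.97). The most opposite patterns were those of the glycolytic kinase Pgk1 (-0.99), the plasma membrane protein Efr3b (-0.98), the sperm protamine Prm1 (-0.97), the methionine salvage enzyme Mtap (-0.96) and the kinesin Kif5b (-0.96). Likeness here follows the genotype step, and the sizes differ widely, from 0.09 for Kif5b and -0.09 for Abhd11 to -0.92 for Dusp26 and 1.97 for Prm1. All these points share the same 8 arrays.

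**Figure D4:**
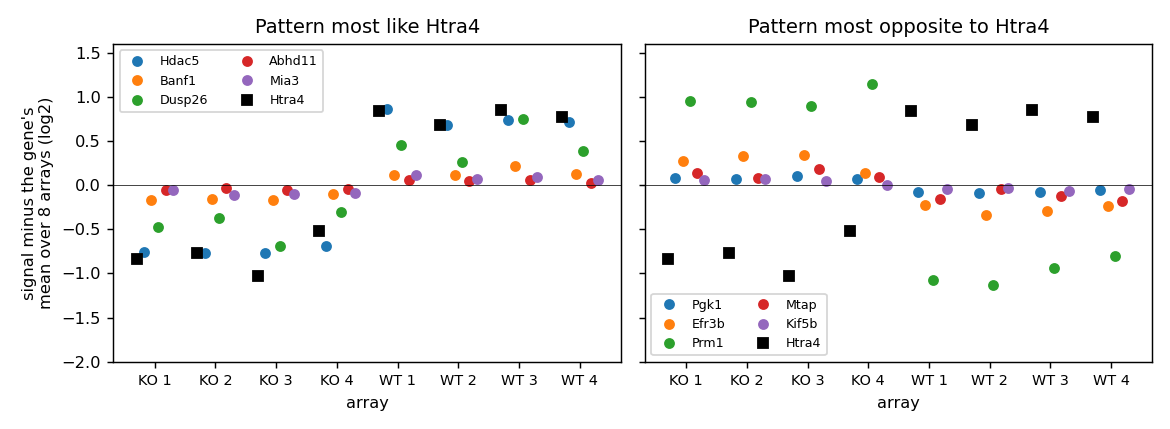
Log2 signal minus the gene's own mean over the 8 arrays (vertical axis) for Htra4 and the 5 genes with the most similar (left) and most opposite (right) pattern, by array. Each point is an array, with points of the same array offset sideways for legibility. Htra4 and its most similar genes sit below 0 in knockout and above 0 in wild type arrays, and the opposite genes mirror them with steps of different size.

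With the genotype means taken out, the members had different closest patterns over the 8 arrays. For Htra4 these were Cox6b1, a cytochrome c oxidase subunit (r = 0.95), the histone methyltransferase Kmt2c (0.94) and Dtna, which encodes a dystrophin-associated protein (0.94). For Htra1 they were Cs, the citrate synthase (0.97), the lysosomal sulphatase Sgsh (0.95) and Vps18, a vesicle tethering subunit (0.94). Htra2 was closest to the Golgi protein Gorasp1 (0.99), the ubiquitin ligase component Sharpin (0.99) and Maea (0.99), and Htra3 to the methyltransferase Mettl21a (0.99), Lysmd2 (0.99) and the membrane protein Flot1 (0.99). No p is given, since each set was picked from 9968 genes over the same 8 arrays.

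Genes that act with or resemble the HtrA proteases were taken in 7 lists that hold 140 tested genes. In limma 0 of the 140 were called, with 26 (18.6%) at an unadjusted p under 0.05, of which 21 were higher and 5 lower in knockout muscle. Over all genes 7.90% had an unadjusted p under 0.05. Several of the lists hold fibroblast and matrix genes. All 7 fibroblast markers had a higher mean in knockout muscle, where their average signal was 10.64 to 11.00, against 10.54 to 10.84 in wild type muscle. Their differences ran from 0.014 to 0.44, and 3 of the 7 had an unadjusted p under 0.05 in limma. All 5 macrophage markers were higher too, at an average of 8.75 to 9.12 in knockout and 8.34 to 8.81 in wild type samples. Their differences ran from 0.32 to 0.51, and 5 of the 5 had an unadjusted p under 0.05 in limma, with 0 called. The part of these cells in the list values was not tested, and in whole muscle a different number of cells of a type and a different amount of RNA per cell cannot be told apart.

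Of 21 matrix and growth factor genes listed as extracellular substrates or partners of HtrA1 and its relatives, 13 had a higher and 8 a lower mean in knockout muscle, with a median difference of 0.08 against 0.0030 over all genes. In limma 0 were called, with 5 higher and 4 lower at an unadjusted p under 0.05. The elastic fibre protein gene Fbln5 was at 9.26 ± 0.04 in knockout and 9.02 ± 0.08 in wild type muscle (SD, n = 4 each), a difference of 0.24 (SE 0.059, limma adjusted p = 0.232). Efemp1, another fibulin, differed by 0.37 (SE 0.108). Fn1, which encodes fibronectin, had the most positive difference at 0.42, and Fmod, the tendon proteoglycan fibromodulin, the most negative at -0.28. The brightest, the proteoglycan Dcn, differed by 0.08 (SE 0.055).

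Proteins that share modules with the secreted HtrA proteases came next. Of 17 genes with an insulin-like growth factor binding protein module 0 were called in limma, and 2 were higher and 0 lower at an unadjusted p under 0.05, with a median of 0.0040 that was -0.023 without knockout sample 3 and 0.055 without knockout sample 2. These were Esm1, an endothelial proteoglycan, at a difference of 0.37 (SE 0.078, adjusted p = 0.143), and Igfbp4 at 0.38 (SE 0.088, adjusted p = 0.204). Igfbp5, a growth factor binding protein that HtrA1 cleaves, differed by 0.0058 (SE 0.124). Of 22 secreted or surface proteins with Kazal or related modules 0 were called in limma, with 3 higher and 0 lower at an unadjusted p under 0.05 and a median of 0.011 that was -0.011 without knockout sample 3 and -0.016 without knockout sample 4. The membrane protein gene Tmeff2 differed by 0.32 (SE 0.088), Fstl1 by 0.33 (SE 0.110) and the brightest, Sparcl1, by 0.042 (SE 0.062).

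The genes around mitochondrial HtrA2 had differences between -0.14 and 0.15. Of 16 apoptosis and mitochondrial quality control partners 0 were called in limma, with 1 higher and 0 lower at an unadjusted p under 0.05 and a median of 0.028, or 0.011 without wild type sample 4 and 0.018 without wild type sample 1. The rhomboid protease gene Parl, whose product acts with HtrA2, differed by 0.15 (SE 0.061, adjusted p = 0.543). Pink1, the kinase that marks damaged mitochondria, differed by -0.14 (SE 0.067), and Cycs, cytochrome c, by -0.036 (SE 0.054). Of 17 mitochondrial proteases 0 were called, with 2 higher at an unadjusted p under 0.05, Parl and the inner membrane protease Yme1l1 at 0.14 (SE 0.060). Their median was 0.025, but leaving out knockout sample 4 gave 0.081, wild type sample 1 gave 0.069 and wild type sample 3 gave 0.051. The sign turned when knockout sample 1 (-0.0024) or wild type sample 4 (-0.0082) was left out.

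Other extracellular proteases and a list of protease inhibitors completed the set. Of 29 secreted or surface serine proteases 0 were called in limma, and 7 were higher and 0 lower at an unadjusted p under 0.05, with a median of 0.06 that was 0.012 when knockout sample 4 was left out, 0.038 when knockout sample 3 was and 0.037 when wild type sample 3 was. The proprotein convertase Pcsk6 was at 9.57 ± 0.14 in knockout and 9.21 ± 0.14 in wild type muscle (SD, n = 4 each), a difference of 0.36 (SE 0.085, adjusted p = 0.202). The plasminogen activator Plau differed by 0.34 (SE 0.091, adjusted p = 0.286), and the brightest, Prss23, by 0.15 (SE 0.091). The list of 21 tested genes for secreted protease inhibitors also held some intracellular serpins, such as Serpinb6a. Of these 21 genes 0 were called, with 2 higher and 1 lower at an unadjusted p under 0.05. Their median was -0.039, or 0.0071 without knockout sample 1 and -0.064 without knockout sample 3. Timp3, an inhibitor of metalloproteases, differed by -0.23 (SE 0.072, adjusted p = 0.399), the complement inhibitor Serping1 by 0.27 (SE 0.091) and the brightest, Serpinb6a, by -0.014 (SE 0.063).

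**Figure D5:**
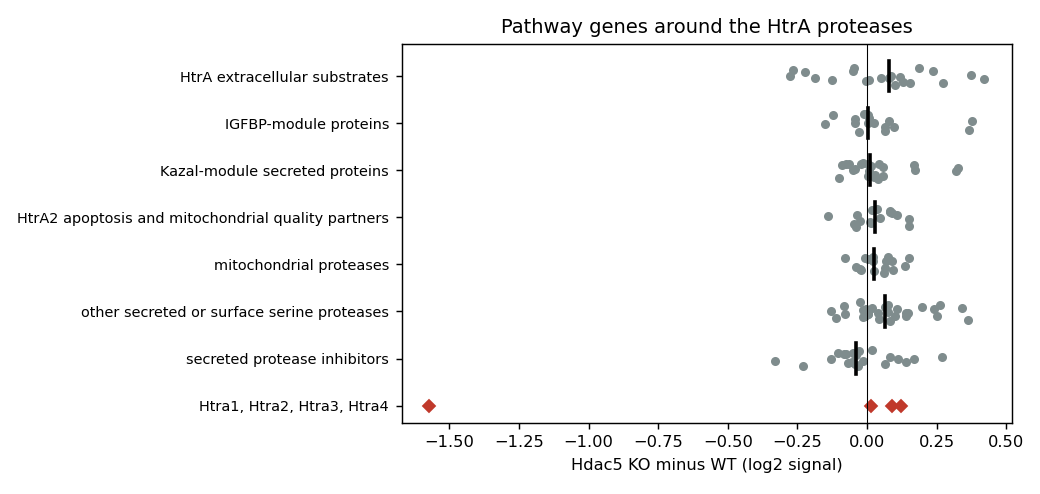
Genotype difference (horizontal axis, Hdac5 KO minus WT in log2 signal) of the genes in 7 lists around the HtrA proteases and of the 4 members. Each grey point is a gene, black bars are list medians and red diamonds are the members. List genes lie between -0.33 and 0.42, while Htra4 lies at -1.57.

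Markers of slow fibres were lower in knockout muscle alongside Htra4. All 7 had a lower mean in knockout muscle, where their average signal was 10.73, 11.12, 11.39 and 11.17 in samples 1 to 4, against 11.46, 11.86, 11.87 and 11.59 in wild type samples 1 to 4. The knockout average lay below the wild type average in every sample, although 0 of the 7 were called in limma, with 7 lower at an unadjusted p under 0.05. Over all genes 0.0652% were called and 7.90% had an unadjusted p under 0.05. For 5 of the 7 the samples did not overlap between the genotypes, as for 4.90% of all genes. Within the knockout samples, sample 3 had the highest slow fibre average and the lowest Htra4. Within the wild type samples, sample 3 had the highest value of both. Wild type sample 1 had the lowest slow fibre average of its genotype and wild type sample 2 the lowest Htra4. Tendon markers (6 of 6 with a lower mean) averaged 8.93 to 9.34 in knockout and 9.17 to 9.54 in wild type samples, and both measured Schwann cell markers averaged 7.52 to 7.80 in knockout and 7.66 to 7.97 in wild type samples, with overlap in each case. The endothelial markers averaged 10.35 to 10.68 in knockout and 10.41 to 10.55 in wild type samples, and the satellite cell markers 7.79 to 7.98 in knockout and 7.84 to 7.90 in wild type samples. Adipocyte markers averaged 8.87 to 9.24 in knockout and 8.295 to 9.97 in wild type samples. Smooth muscle and pericyte markers averaged 9.80 to 10.05 in knockout and 9.78 to 9.95 in wild type samples. Of the latter, 2 were higher and 2 lower in knockout muscle at an unadjusted p under 0.05 in limma. The array signal has no true zero, so no marker can be called absent. The part of these cell types in the Htra4 difference was not tested.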

How the data were processed

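RNA from gastrocnemius was hybridised to 8 Affymetrix mouse gene arrays, 150 ng of total RNA per array, per the labels' protocols. The authors deposited log2 values, 1 per probe set and array, made with Affymetrix Expression Console 4.0 per the submitters' processing notes. How background was corrected and arrays were normalized is not stated there, and the log2 scale was inferred from the range of 3.28 to 14.84. Dim signals compress differences, signals near the top of the range can do so too, and the number of arrays limits the precision.

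Of 35556 probe sets, 21789 carried a single symbol, 1621 carried several and 12146 carried none in the platform annotation. Each of 19938 genes was represented by its brightest single-symbol probe set (mean of 8 arrays). Gene order came from RefSeq (GRCm38.p6), without coordinates, because the build of the array annotation is not stated. The deposited values were compared with limma 3.58.1 (R 4.3.3; lmFit, eBayes, genotype as the only term), with Benjamini-Hochberg adjustment over all genes, after the fit had been tested on simulated data. Exact permutation tests (scipy 1.17.1) cannot give a p below 0.0286 here. Plots used matplotlib 3.10.9. The alternatives are given in the closing section.

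The members and lists were chosen with earlier results of these data known. Of 152 list entries, older symbols were matched through RefSeq synonyms. Named were the members, Hdac5, the measured genes among the 5 on each side of Htra4 and the closest patterns. Per list, any gene called, the 2 of smallest p and the brightest were named. Fn1, Fmod, Loxl3 and Aup1 were named after their values were seen.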

Additional observations from a re-analysis of the deposited data

Results flagged for a closer look

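In 62 groups of 4 samples examined (members, Hdac5, the neighbours of Htra4 and the list averages), 2 held a sample far from the others, where chance alone flags about 1 in 20. Htra3 was at 8.80 in wild type sample 4, and 85.2% of the range of that group lay between it and its nearest neighbour. Hdac5 was at 8.39 in knockout sample 4, which lay above 3 knockout samples within a range of 0.083.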

How the results depend on the processing

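Under the 16 alternatives run for each member, Htra4 differed by -1.66 to -1.49, Htra2 by 0.046 to 0.14 and Htra3 by 0.052 to 0.16. Each kept its sign. Leaving out dim genes, changing the eBayes step, adding the sample number and changing the probe set rule could not move the difference of any member. Each member has a single probe set, and the genotypes have equal numbers of samples. With a gap of 1.19 between the genotypes, leaving out a single sample could not turn the sign of Htra4 either. Nothing is read from its kept sign. With single samples left out, Htra1 ran from -0.087 (without knockout sample 3) to 0.077, with a negative sign also at -0.0038 and -0.052, and under the other alternatives from 0.0012 to 0.028. Htra1, Htra2 and Htra3 were called under 0 of the 16 alternatives, and 0 genes of the 7 lists or among the neighbours of Htra4 were called under any. The number of genes called, 13, was less stable. It was 23 with quantile normalization, 36 with genes under the 25th percentile of signal left out, 44 with a trended and robust eBayes, 31 with array weights, 28 with all probe sets tested, and 5 to 20 with single samples left out (5 without wild type sample 2 or 4, 20 without knockout sample 4). The cause was not tested. The replicate block, with the sample number as a term, gave 30 calls. Same-numbered samples 1 to 4 correlated at 0.34, -0.11, -0.15 and 0.34 in their deviations from the genotype means. Pairs with different numbers ran from -0.33 to 0.20, so the values of samples 1 and 4 were the highest. The same-numbered values differed in sign, and the main fit left the sample number out. Whether same-numbered samples shared a batch or an order of handling was not tested. Slow fibre markers were called in some alternatives, with 4 of 7 lower with the block. Scaling moved the median difference of all genes from 0.0030 to at most 0.018. Other background corrections were not run, since scanner values were not used here.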
